A study of Mus musculus with 4 samples.

Results

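The collagen genes were taken as every symbol of the form Col, number, a, number in the deposited gene list, which gave 44 of 31053 genes. All 44 had at least 1 unique molecular identifier (UMI, 1 captured RNA molecule) in the kept cells, 18 of them with fewer than 100 UMIs and 7 with more than 1000. They were followed in CD45+ DAPI- cells that had been sorted from collagenase-dissociated tissue of C57/BL6 mice. Each sample gave 1 droplet library of RNA 3′ ends. There were 2 libraries of normal skin from uninoculated mice (control skin 1 and 2) and 2 libraries of skin tumors grown under the skin of the flank after injection of 2323 cells (skin tumor 1 and 2). The 2323 line is a single line from a mouse model in which the keratin 14 promoter drives the transgene in keratinocytes. The hosts of the tumors had the same C57/BL6 genotype as the control mice. Replicate numbers are the only link between libraries, and nothing in the sources used here says whether the samples of a group came from separate experiments, so p-values measure the spread between these samples.

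Collagens are secreted proteins whose chains wind into a rope-like helix. The fibrillar types (I, III and V) build the dermis, types IV, XV and XVIII belong to basement membranes, type VI forms beaded filaments, and type XVII is a membrane collagen by which basal keratinocytes hold to the basement membrane. Dermal fibroblasts are the main producers in skin, while most immune cells make little collagen. In droplet data, RNA released by broken cells is captured together with intact cells, so a few collagen UMIs in a leukocyte do not show that the leukocyte transcribed the gene.

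The control libraries contained 3499 and 3862 cells and the tumor libraries 5176 and 2258, with 34893543 to 73904272 UMIs each. The filters kept 12848 of 14795 cells, whose median depth was 10610 to 13361.5 UMIs by library. Marker gates placed 62.7% of the kept cells in 1 of 13 immune types, 2.26% passed several gates and 33.5% passed none. Cell barcodes were shared between libraries in 23 cases. In each gated type with at least 10 cells in a library, all genes of its own marker list were detected. Levels are given throughout as UMIs of a gene per 10,000 UMIs of all genes, summed over the cells of a class in 1 library. Each captured 3′ end counts once, so levels on this scale were not divided by transcript length.

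The collagen genes were first counted in cells that carried little Ptprc, the gene of CD45. A cell was called collagen-positive when it had at most 1 UMI of Ptprc and at least 5 UMIs of Col1a1, Col1a2 and Col3a1 together, the genes of the type I and type III fibril chains. There were 2 such cells in control skin 1, 3 in control skin 2, 51 in skin tumor 1 and 99 in skin tumor 2. These were 0.0671% and 0.0971% of the kept control cells and 1.07% and 4.96% of the kept tumor cells. The exact 95% intervals reached from 0.00813% to 0.242% and from 0.0200% to 0.284% in the controls, and from 0.795% to 1.40% and from 4.05% to 6.01% in the tumors. They cover counting error only. Both tumors lay above both controls, by 2.93 percentage points in the mean, with p = 0.3333 in the two-sided exact permutation test, which is the smallest p that 2 against 2 libraries can give. The CD45+ sort sets these shares in part, since cells without CD45 were meant to be removed.

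The gate was far from its threshold in most tumor cells. The median sum over the 3 gate genes was 6 and 7 UMIs in the control cells and 15 and 40 UMIs in the tumor cells. Just inside the threshold, at 5 to 9 UMIs, there were 2, 2, 16 and 13 cells, and just outside it, at 1 to 4 UMIs, there were 6, 21, 24 and 15 Ptprc-low cells in the same order of libraries. No Ptprc UMI at all was found in 44 of the 51 and 86 of the 99 tumor cells. The tumor cells were deep, with medians of 26722 and 37958 UMIs, against 5116.5 and 3891 UMIs in the control cells. A further 9, 22, 5 and 6 cells reached 5 UMIs of the gate genes with more than 1 UMI of Ptprc, and they were not called collagen-positive.

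Marker genes were then read in the collagen-positive cells. In both tumors all 11 genes of a stromal list were detected, at a summed level of 22.7 and 30.6. Sparc, which encodes a matrix protein that binds collagen, stood at 7.44 and 10.4, and Serpinh1, the chaperone of procollagen in the endoplasmic reticulum, at 5.26 and 4.72. Dpt, a dermal matrix protein gene, was at 1.66 and 2.45, and Dcn, the decorin gene and a defining fibroblast marker, was lower at 0.245 and 0.824. Low as well were Lum at 0.146 and 0.399, Bgn at 0.0331 and 0.0998 and Pdgfra at 0.172 and 0.116. Of a keratinocyte list, 3 and 4 of 10 genes had a UMI, with a summed level of 0.245 and 0.226, and Krt5 and Krt14 were at 0 in both tumors. Krt10 was at 0.0927 and 0.0945, in 23.5% and 25.3% of the cells, against 0.0131 and 0.0125 in gated immune cells. Sfn was found in 5.88% and 24.2% of the cells. Krt18, which is not in the list, was at 0.377 and 0.0604 against 0.00240 and 0.00467 in gated immune cells. It was found in 15.7% and 9.09% of the cells. Krt8, also outside the list, was at 0.00662 and 0, and Epcam at 0 and 0.00263. The epithelial cadherin gene Cdh1 was at 0 and 0.00263, the neural cadherin gene Cdh2 at 0.523 and 0.554, and the intermediate filament gene Vim at 24.4 and 30.6. The macrophage list of 9 genes reached only 0.497 and 0.431. Ptprc was at 0.0463 and 0.0341, against 9.498 and 8.899 in the gated immune cells of the same tumors. The gate allowed at most 1 Ptprc UMI, so this low level follows from the choice of cells. Injected 2323 cells and host stromal cells cannot be told apart by these counts, so the cells are named by their gate alone.

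The control cells were few and mixed. The 2 cells of control skin 1 had UMIs of 7 of the 9 macrophage genes at a summed level of 44.0, and the 3 cells of control skin 2 had 6 of 9 at 21.8. The stromal list was at 3.91 in control skin 1, with 4 of 11 genes detected, and at 72.4 in control skin 2, with 6 of 11, which is above both tumors. Sparc was at 0.977 and 60.1 and Serpinh1 at 0 and 5.89, so these genes did not set the tumor cells apart from those of control skin 2, while Dpt was at 0 in both controls. One cell gave 83.0% of all collagen UMIs of the control collagen-positive cells. With 2 and 3 cells, levels in this class were not compared between tumor and control skin by any test.

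In the tumors the collagen-positive cells carried most of the collagen RNA. They held 79.9% of all collagen UMIs of the kept tumor cells, and no single cell gave more than 2.41% of the UMIs in the class. By library these were 3634 of 5967 UMIs in skin tumor 1 and 12126 of 13752 in skin tumor 2. Col3a1, a gene of the gate, gave 6298 of the 15760 UMIs of the class. All members together stood at 24.1 and 31.8 UMIs per 10,000 in these cells, with 30 and 39 of the 44 genes detected. By gene, their share of the tumor UMIs was 90.6% for Col3a1, 90.7% for Col6a3, 88.8% for Col5a3, 88.3% for Col6a1, 84.6% for Col16a1, 77.7% for Col1a1 and 57.7% for Col27a1. It was only 21.9% for the gate gene Col1a2, of which macrophages held 50%, 4.21% for Col15a1 and 0.360% for Col14a1. In control skin the collagen-positive cells held 1.18% of the collagen UMIs, and the gated immune cells 74.4%.

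**Figure D1:**
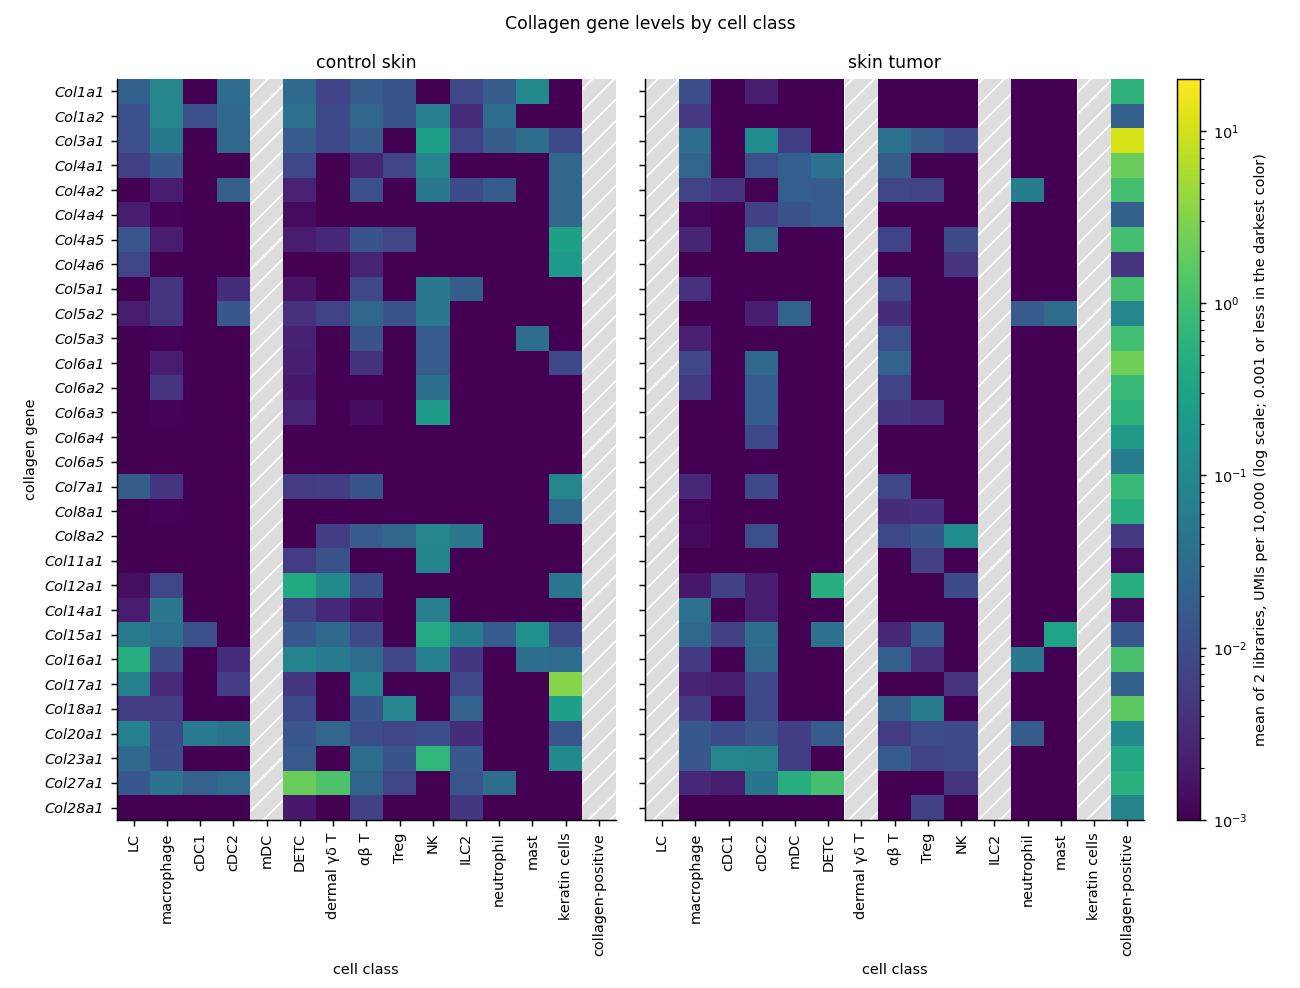
Mean level of each described collagen gene (rows, UMIs per 10,000, log color scale) in each cell class (columns) for control skin and skin tumor; hatched columns had fewer than 10 cells in at least 1 of the 2 libraries. The tumor collagen-positive column is bright for most genes, while Col27a1 and Col12a1 stand out in control DETC, Col16a1 in control LC and Col17a1 in control keratin cells.

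Among the fibrillar genes, Col3a1, the single chain of type III collagen, led in the tumor collagen-positive cells with 8.95 and 13.0 UMIs per 10,000. Col1a1 was at 0.655 and 0.599, and Col1a2, the partner chain of type I collagen, was at only 0.00662 and 0.0341, which rest on 1 and 13 UMIs. These genes chose the cells, so their levels are a description. The type V chains, which start fibrils, were not used by the gate: Col5a1 was at 0.953 and 1.19, Col5a3 at 0.986 and 1.05, and Col5a2 at 0.0728 and 0.116. Col27a1, a fibrillar collagen known from cartilage, was at 0.450 and 0.667.

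The microfilament and network genes followed. Col6a1, a chain of the type VI filament, was at 1.85 and 2.73, Col6a2 at 0.722 and 0.921 and Col6a3 at 0.596 and 0.633. The alternative type VI chains Col6a4 and Col6a5 were lower, with Col6a4 at 0.265 and 0.158 and Col6a5 at 0.0463 and 0.0840. Col8a1, a short-chain network collagen, was at 0.642 and 0.354, and Col7a1, the anchoring fibril collagen of the skin, at 0.775 and 0.809. Both tumors gave the same order for the main type VI chains, Col6a1 above Col6a2 above Col6a3.

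Of the basement membrane genes, Col4a1 was at 1.68 and 2.53, Col4a2 at 0.940 and 1.23, Col4a5 at 0.821 and 1.27 and Col18a1, whose product also yields endostatin, at 1.62 and 1.69. Col4a4 stayed at 0.0265 and 0.0158. The fibril-associated genes ran from Col16a1 at 1.07 and 1.23 through Col12a1 at 0.384 and 0.596 to Col20a1 at 0.0662 and 0.144. The membrane collagen Col23a1 was at 0.291 and 0.507. Col14a1, a fibril-associated collagen of dermal fibroblasts, was at 0 and 0.00263, and Col15a1, a basement membrane collagen, at 0 and 0.0289.

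**Figure D2:**
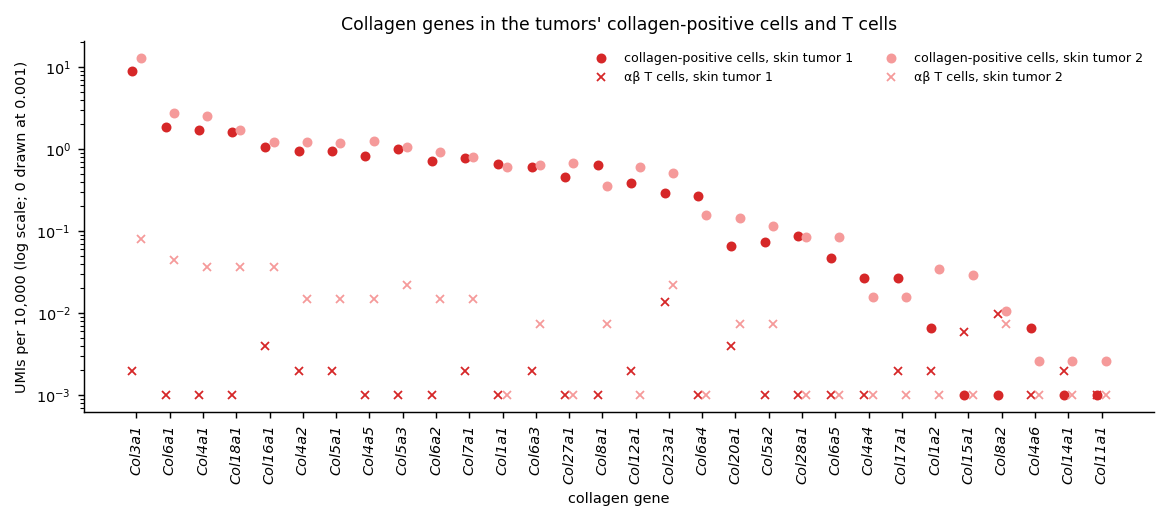
Levels (UMIs per 10,000, log scale, 0 drawn at 0.001) of the described collagen genes in the collagen-positive cells (circles) and in the αβ T cells (crosses) of skin tumor 1 and skin tumor 2, ordered by the tumor mean. Col3a1 is highest at 8.95 and 13.0, and the circles of most genes lie far above the crosses of the same library.

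To separate expression from free RNA, each class was compared with the αβ T cells of the same libraries, which sat in the same droplet suspension and are not known as collagen producers. Summed counts were tested by the quasi-likelihood method of edgeR, with p-values adjusted over all genes after Benjamini and Hochberg, and the library entered as a block. In the tumor collagen-positive cells 22 members passed the filter on low counts and all 22 were higher than in T cells, where 24.6% of all tested genes were higher. Of the 22, Col3a1 and Col1a1 had been used by the gate. Genes near 0 in T cells could pass the filter only through the collagen-positive cells, and these cells were chosen by their collagen UMIs. The count, the sizes and the p-values are therefore a description. The filter sets the same limit for the other classes compared with T cells below. The sizes were large: Col6a1 was higher by 7.36 ± 0.67 on the log2 scale (SE, n = 2 tumors, adjusted p = 3.73e-05), Col16a1 by 6.24 ± 0.52 (adjusted p = 2.50e-05) and Col23a1 by 4.19 ± 0.43 (adjusted p = 8.11e-05). Col27a1, Col28a1, Col6a4 and Col6a5 had no UMI in the tumor T cells. Against a floor of 3 counts over both tumors, Col27a1 was at least 129-fold higher, Col6a4 at least 40.2-fold, Col28a1 at least 18.1-fold and Col6a5 at least 15.7-fold.

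Many collagen-positive cells held several of these genes at once. Col6a1 was found in 82.4% and 96.0% of them, Col4a1 in 86.3% and 90.9%, Col16a1 in 88.2% and 85.9%, and Col1a1 in 17.6% and 26.3%. After thinning every cell to 1000 UMIs, to allow for their depth, the shares were 15.7% and 26.3% for Col6a1, 21.6% and 28.3% for Col4a1, 9.80% and 15.2% for Col16a1, and 3.92% and 6.06% for Col1a1. In αβ T cells of the tumors, whose median depth was 10360.5 UMIs against 35299 UMIs in the collagen-positive cells, Col16a1 was found in 0.541% and 3.23% and, after thinning, in none.

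The type IV collagen genes lie in head-to-head pairs. Col4a1 (GRCm38 chr8:11198423-11312826, minus strand) and Col4a2 (chr8:11312805-11449287, plus strand) overlap by their first bases, with annotated starts 21 bases apart. Col4a5 (chrX:141475385-141689234, plus strand) and Col4a6 (chrX:141165403-141474076, minus strand) start 1309 bases apart. In the collagen-positive cells of the tumors, Col4a2 took 35.9% and 32.7% of the UMIs of its pair, with exact 95% intervals of 31.1% to 40.8% and 30.3% to 35.2%. Col4a6 had 1 UMI against 124 of Col4a5 in skin tumor 1 and 1 against 483 in skin tumor 2. In the keratin-bearing cells of control skin described further on, Col4a6 took 47.1% and 39.3% of its pair (8 of 17 and 11 of 28 UMIs, exact intervals 23.0% to 72.2% and 21.5% to 59.4%). The first pair was thus found together, whereas the second was found with 1 partner nearly alone in tumor cells and with both in keratin-bearing cells. The promoter windows of these genes are shown because the members of a pair face each other across them.

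Each window of 300 bases spans the RefSeq start on GRCm38.p6 and is written 5′ to 3′ on the strand of the gene. Capitals mark GGGCGG (the GC box), CCAAT and TATAAA, searched on both strands, and in these windows no match overlapped another. The windows of Col4a1 (chr8:11312777-11313076, minus strand) and Col4a2 (chr8:11312555-11312854, plus strand) share 78 bases. Those of Col4a5 (chrX:141475169-141475468, plus strand) and Col4a6 (chrX:141474027-141474326, minus strand) do not meet.
Col4a1: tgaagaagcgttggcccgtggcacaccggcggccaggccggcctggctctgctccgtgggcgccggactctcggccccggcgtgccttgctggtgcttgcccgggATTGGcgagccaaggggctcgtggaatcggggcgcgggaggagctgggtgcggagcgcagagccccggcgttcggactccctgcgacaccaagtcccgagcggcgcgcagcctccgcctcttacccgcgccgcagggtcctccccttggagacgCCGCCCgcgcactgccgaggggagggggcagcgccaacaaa
Col4a2: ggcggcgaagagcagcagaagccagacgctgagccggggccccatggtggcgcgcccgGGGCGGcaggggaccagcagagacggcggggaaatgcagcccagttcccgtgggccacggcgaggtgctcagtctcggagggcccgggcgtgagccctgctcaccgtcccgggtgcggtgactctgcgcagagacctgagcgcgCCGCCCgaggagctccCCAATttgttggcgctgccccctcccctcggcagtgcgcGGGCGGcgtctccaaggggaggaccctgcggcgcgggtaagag
Col4a5: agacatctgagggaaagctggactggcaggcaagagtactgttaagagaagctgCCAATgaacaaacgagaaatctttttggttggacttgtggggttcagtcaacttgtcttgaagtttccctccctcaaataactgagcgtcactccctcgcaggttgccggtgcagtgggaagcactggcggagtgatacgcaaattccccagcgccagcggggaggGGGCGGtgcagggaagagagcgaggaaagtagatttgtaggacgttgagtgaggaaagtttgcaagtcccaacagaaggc
Col4a6: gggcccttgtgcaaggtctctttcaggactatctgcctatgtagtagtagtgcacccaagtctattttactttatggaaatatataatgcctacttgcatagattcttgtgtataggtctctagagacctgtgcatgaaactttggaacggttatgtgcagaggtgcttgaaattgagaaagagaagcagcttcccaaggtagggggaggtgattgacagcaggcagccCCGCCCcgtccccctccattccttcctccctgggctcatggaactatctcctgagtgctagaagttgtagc
Their GC content was 74.0%, 73.7%, 52.7% and 48.3% in this order. The GC box occurred in all 4 windows, 3 times in that of Col4a2, and the TATA box in none. Over all members with a window, 35 of the 44 genes, the GC box was present in 62.9%, CCAAT in 37.1% and the TATA box in 14.3%. Of 32851 promoter windows of the same length, 35.7%, 37.4% and 13.6% held these motifs. The units differ, since a member counted when any of its windows held the motif, and the 35 members had 38 windows. A match describes letters in the window and not a bound factor.

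The make-up of the fibrillar UMIs was then used to describe the free RNA. Within 1 library, RNA from 1 source keeps its genes in 1 ratio in whatever droplet it lands. In the tumor collagen-positive cells Col3a1 made up 93.1% and 95.4% of the UMIs of the 3 gate genes, and Col1a2 made up 0.0689% and 0.251%. In gated immune cells with fewer than 5 such UMIs, Col3a1 made up 55.8% and 68.3% in the tumors (exact 95% intervals 47.1% to 64.2% and 57.1% to 78.1%). Col1a2 made up 19.6% and 7.32% there, with intervals of 13.3% to 27.2% and 2.73% to 15.2%. These intervals did not meet those of the collagen-positive cells of the same tumor, which ended at 0.383% and 0.428% for Col1a2. Nearly all of the immune UMIs behind them lay in macrophages. Both sets of cells were cut by the sum of the same 3 genes, so the contrast is a description. Without the limit of 5 UMIs, Col3a1 made up 68.39% and 76.99% in gated immune cells of the tumors and Col1a2 13.99% and 5.31%. The intervals cover counting error only and treat the UMIs of 1 cell as independent. In gated immune cells of control skin with fewer than 5 such UMIs, the proportions were nearly equal in both libraries. Col1a1 was at 40.5% and 39.1%, Col1a2 at 35.1% and 36.6% and Col3a1 at 24.3% and 24.3%, from 74 and 235 UMIs. Without this limit the control libraries lay further apart, with Col1a1 at 29.4% and 40.2%, Col1a2 at 46.9% and 34.6% and Col3a1 at 23.8% and 25.2%.

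**Figure D3:**
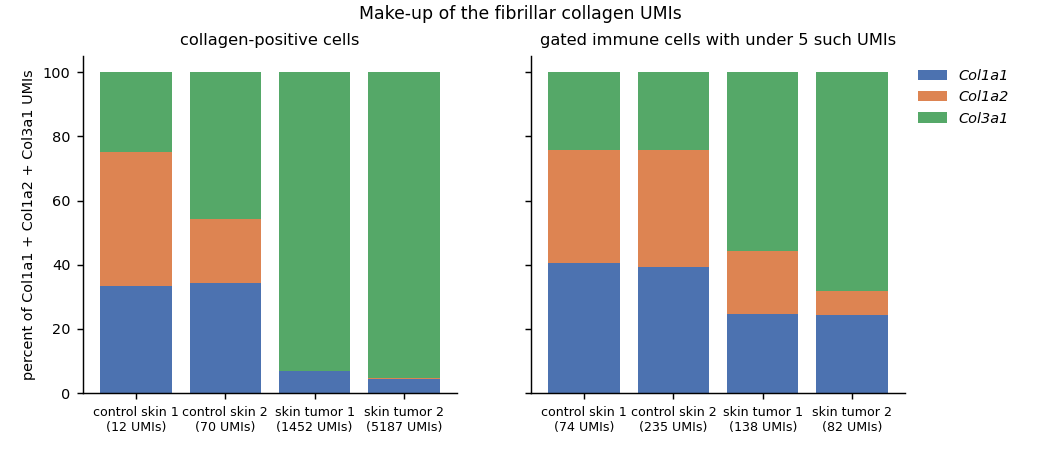
Stacked bars of the percent of Col1a1, Col1a2 and Col3a1 among the UMIs of these genes, per library, in collagen-positive cells (left) and in gated immune cells with fewer than 5 such UMIs (right); UMI totals stand under each bar. Col3a1 fills 93.1% and 95.4% of the tumor bars on the left but 55.8% and 68.3% on the right, and near 24% in control immune cells.

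These low counts were not spread evenly over the immune types. Macrophages with fewer than 5 fibrillar UMIs had 12.6, 31.9, 6.19 and 10.3 such UMIs per 100 cells in control skin 1, control skin 2, skin tumor 1 and skin tumor 2. The other gated immune cells together had 3.72, 8.65, 0.883 and 1.99 per 100 cells. Per 100 cells, macrophages were the highest of the types with at least 10 cells in all 4 libraries. Per 10,000 UMIs this did not hold in control skin 2, where mast cells stood at 0.289 from 4 UMIs and macrophages at 0.201. They were also deeper, with median depths of 14201 UMIs in control skin and 18440.5 UMIs in tumor against 10083.5 and 10360.5 UMIs in αβ T cells, and the part of depth in this order was not tested. Of the UMIs behind the tumor proportions, 129 of 138 and 73 of 82 lay in macrophages, and the other gated immune cells had 9 in each tumor, of which Col3a1 made up 77.8% and 100%. With so few UMIs the intervals of these other cells, 40.0% to 97.2% and 66.4% to 100% for Col3a1, met those of the collagen-positive cells. By type, the values ran from 0 to 12.6 in control skin 1 with a median of 1.88, and from 0 to 31.9 in control skin 2 with a median of 6.71. In the tumors they ran from 0 to 6.19 with a median of 0 and from 0 to 10.3 with a median of 0.847. DETC, cDC1, neutrophils and mast cells had no such UMI in either tumor.

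Some collagen genes stood above that background in immune cells. The clearest was Col27a1 (GRCm38 chr4:63214004-63334991, plus strand), which had the most UMIs of all members, 7939, and whose locus contains the microRNA gene Mir455. In DETC, the γδ T cells of the mouse epidermis, it was at 2.05 in control skin 1, 2.15 in control skin 2, 0.0418 in skin tumor 1 and 2.11 in skin tumor 2, from 2093, 3142, 1 and 61 UMIs. In αβ T cells it was at 0.0283, 0.0202, 0 and 0 in the same libraries. It was found in 74.2% and 83.4% of control DETC, 22.0% and 21.0% after thinning, and in 1.78% and 2.56% of control αβ T cells, 0.356% and 0.855% after thinning. Median depths in control skin were 12014 UMIs for DETC and 10083.5 UMIs for αβ T cells. The difference from αβ T cells over the 4 libraries was 6.91 ± 0.46 on the log2 scale (SE, adjusted p = 0.000494). Skin tumor 1 had only 14 DETC and skin tumor 2 had 27, with the DETC marker list at 33.6 and 59.9 against 87.3 and 80.0 in control skin, so the level in skin tumor 1 rests on 1 UMI.

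Dermal γδ T cells, gated by Cd163l1, carried Col27a1 as well. The level was 1.16 and 1.36 in control skin, with UMIs in 50.9% and 51.4% of cells (6.36% and 4.29% after thinning). It exceeded αβ T cells of control skin by 5.64 ± 0.29 (SE, n = 2 libraries, adjusted p = 2.64e-06) and was below the control DETC levels in both libraries. The tumors held 6 and 3 such cells and were not used. Col27a1 was the only member tested in this class, in which 17.1% of all tested genes were higher than in αβ T cells. The gene was near 0 in αβ T cells and passed the filter mainly through the dermal γδ T cells, so this is a description. Mature dendritic cells, gated by Ccr7, had Col27a1 at 0.205 and 0.788 in the tumors from 16 and 17 UMIs. It was there at least 70.8-fold higher than in tumor αβ T cells, which had none, where 17.3% of all tested genes were higher. The gene could pass the filter only through the mature dendritic cells, so this is a description. It was found in 15.2% and 46.2% of these cells, and in 2.17% and 7.69% after thinning. With a stricter gate for this type the gene did not pass the filter.

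Col12a1 (GRCm38 chr9:79598991-79718831, minus strand), a fibril-associated collagen, was the other member of DETC. Its levels were 0.349 and 0.463 in control skin and 0.0836 and 0.969 in the tumors, from 356, 676, 2 and 28 UMIs. αβ T cells had 0.00849, 0.0134, 0.00198 and 0. The difference was 5.92 ± 0.51 (adjusted p = 0.000795), and Col12a1 was found in 25.2% and 32.3% of control DETC (3.62% and 5.23% after thinning) against 0.712% and 0.855% of control αβ T cells. Of 3 members tested in DETC, 2 were higher than in αβ T cells, with 11.7% of all tested genes higher, and Col16a1 was not called (1.14 ± 0.58, adjusted p = 0.214). Col27a1 and Col12a1 were near 0 in αβ T cells and passed the filter mainly through DETC, so the count is a description. In control skin, DETC held 70.9% of the Col27a1 UMIs and 75.4% of the Col12a1 UMIs, and cells without a gate held another 22.8% and 21.1%.

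Langerhans cells (LC) had a different gene. Col16a1 (GRCm38 chr4:130047840-130099283, plus strand), another fibril-associated collagen, was at 0.479 and 0.472 in LC of control skin, from 336 and 332 UMIs. αβ T cells had 0.0368 and 0.0269, a difference of 4.01 ± 0.26 (SE, n = 2 libraries, adjusted p = 2.10e-05). It was found in 30.1% and 35.5% of LC, or 5.42% and 5.33% after thinning, and in 1.42% and 1.71% of αβ T cells, where it was in none after thinning. Col20a1, of the same fibril-associated group, was at 0.0812 and 0.0725 (3.09 ± 0.56, adjusted p = 0.00332), and Col15a1 at 0.0627 and 0.0626 (2.84 ± 0.59, adjusted p = 0.00657). These were 3 of 10 members tested in LC, where 22.9% of all tested genes were higher. The other 7 were not called, Col1a1, Col1a2 and Col27a1 among them. The tumors held 1 and 6 LC and gave no comparison.

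Macrophages had Col14a1 and Col15a1 above αβ T cells, 2 of 8 members tested where 26.7% of all tested genes were higher. Both genes were near 0 in T cells and passed the filter mainly through macrophages, so the count is a description. Col14a1 was at 0.0532, 0.0468, 0.0513 and 0.0254 in control skin 1 and 2 and skin tumor 1 and 2, and the T cells at 0.00283, 0, 0.00198 and 0 (5.00 ± 0.63, adjusted p = 0.000922). The groups overlapped for Col14a1. The collagen-positive cells of the tumors had 0 and 1 UMI of Col14a1 in all, and macrophages held 88.5% of its tumor UMIs. Col15a1 was at 0.0532, 0.0245, 0.0353 and 0.0213 (2.75 ± 0.56, adjusted p = 0.00666). Against all other gated immune cells in place of αβ T cells, Col15a1 in macrophages was no longer called (0.61 ± 0.40, adjusted p = 0.276). Col14a1 was found in 4.60%, 4.26%, 6.04% and 4.09% of macrophages, and in 1.15%, 0.355%, 0.240% and 0% after thinning, which is near the level of 1 UMI. Col1a1, Col1a2, Col3a1, Col4a1 and Col27a1 had higher levels than in T cells by 1.31 to 2.48 on the log2 scale but did not pass the test.

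Calls in the remaining types rested on few UMIs. NK cells had Col8a2, a short-chain network collagen, at 0.0436, 0.141, 0.188 and 0.0568 from 2, 4, 20 and 3 UMIs (3.13 ± 0.75, adjusted p = 0.0372, 1 of 1 member tested, 4.51% of all tested genes higher). This call was lost when either of 2 libraries was left out, and without either of the other 2 the gene did not pass the filter. Mast cells had Col15a1 at 0, 0.289, 0.434 and 0.201 from 0, 4, 6 and 3 UMIs (5.36 ± 1.15, adjusted p = 0.00227, 1 of 1 tested, 10.9% higher), and without skin tumor 1 the gene did not pass the filter. In regulatory T cells Col18a1 was at 0.0785, 0.103, 0.0386 and 0.0925 and was not called (2.51 ± 0.80, unadjusted p = 0.0123, adjusted p = 0.106, 0 of 1 tested, 3.69% higher). In cDC1, Col23a1 was the 1 member tested and was not called (adjusted p = 0.362, 13.1% of all genes higher). In cDC2 this was Col3a1 (adjusted p = 0.133, 19.9% higher). No member passed the filter in ILC2 and neutrophils.

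Cells that bear keratin RNA were kept as a further class, gated by at most 1 UMI of Ptprc and at least 10 UMIs of Krt5, Krt14 and Krt15, with 17 and 25 cells in control skin and 1 and 0 in the tumors. Col17a1, the hemidesmosome collagen of basal keratinocytes, was at 1.75 and 4.98 in these control cells, from 63 and 283 UMIs. The αβ T cells had 0.153 and 0, and 46 of the 54 T cell UMIs of control skin 1 came from 1 cell. Col4a6 was at 0.223 and 0.193, Col4a5 at 0.251 and 0.299 and Col18a1 at 0.195 and 0.334. All 4 members tested were higher than in αβ T cells, where 17.3% of all tested genes were higher: Col17a1 by 5.16 ± 0.89 (adjusted p = 0.00112), Col4a6 by 5.53 ± 1.02 (adjusted p = 0.00168), Col4a5 by 4.11 ± 0.77 (adjusted p = 0.00181) and Col18a1 by 3.99 ± 0.80 (adjusted p = 0.00278). Genes this low in T cells could pass the filter only through the keratin-bearing cells, so the count is a description. Col1a1 and Col1a2 had no UMI in these cells, and Col3a1 had 1.

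**Figure D4:**
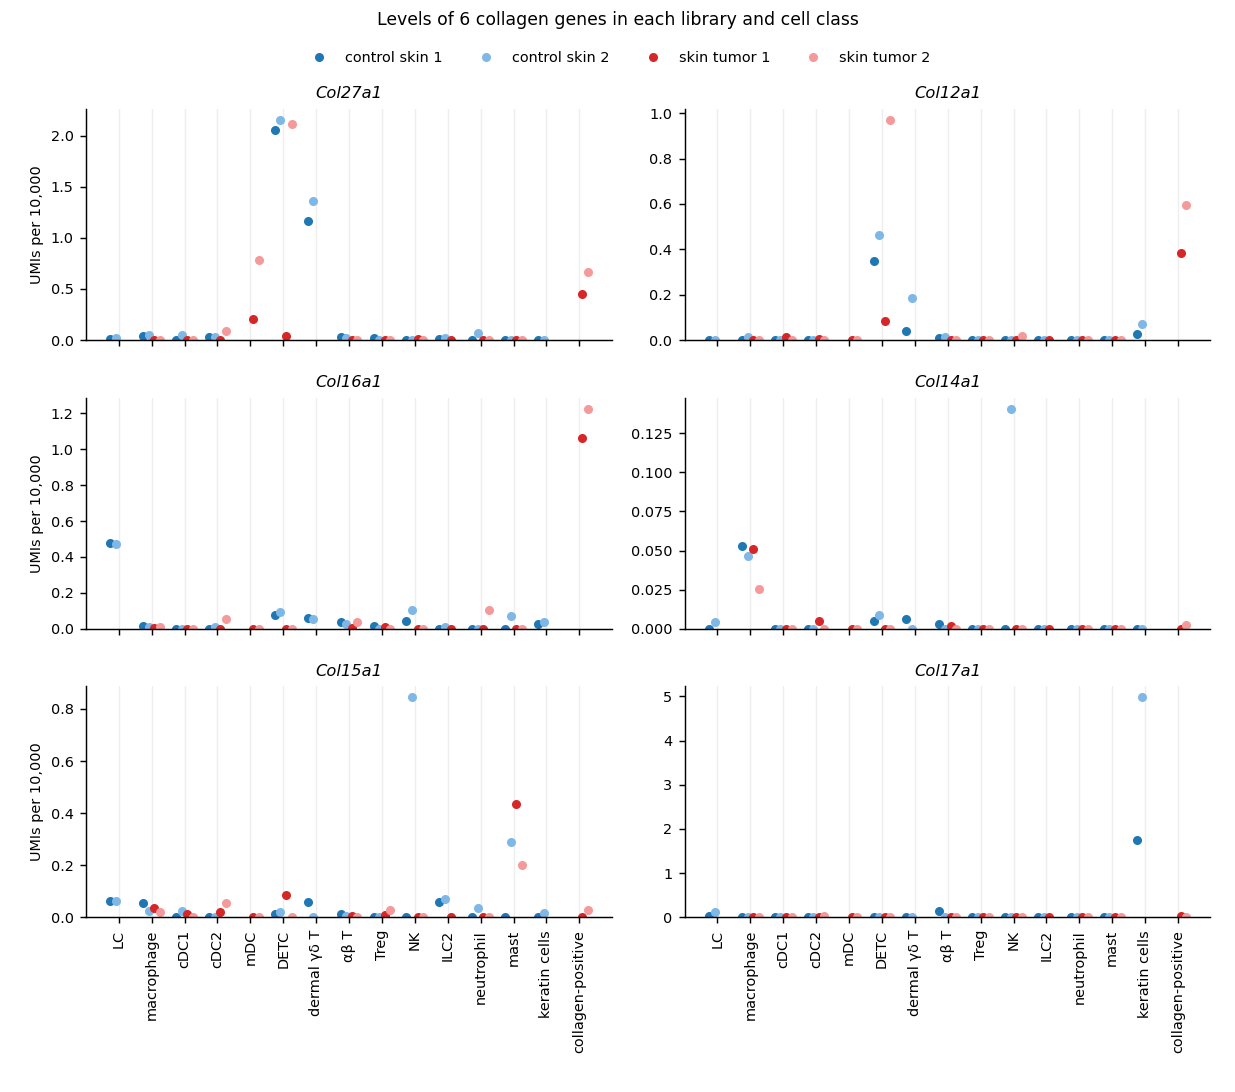
Level (UMIs per 10,000) of Col27a1, Col12a1, Col16a1, Col14a1, Col15a1 and Col17a1 in each cell class, with 1 point per library that had at least 10 cells of the class. Col27a1 is near 2 in DETC of 3 libraries, Col16a1 near 0.48 in control LC and above 1 in tumor collagen-positive cells, and Col17a1 is highest in keratin cells, while the high NK points of control skin 2 for Col15a1 and Col14a1 come from the library in which 1 cell held 124 of 128 collagen UMIs.

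Some levels came from single cells. In NK cells of control skin 2, 124 of 128 collagen UMIs lay in 1 cell, led by Col23a1 with 38, and in αβ T cells of control skin 1, 96 of 223 lay in 1 cell. All 13 Col4a1 UMIs of the 5 mature dendritic cells of control skin 2 were from 1 cell. Such cells set the levels of their class and library, and were kept unless they passed several gates. The summed collagen level in DETC was 2.71 and 2.91 in control skin and 0.293 and 3.18 in the tumors. NK cells were at 0.152 and 4.503 in control skin, the second value from the library with the single cell, and mature dendritic cells at 1.502 and 3.295 from 8 and 5 cells. Dermal γδ T cells of control skin were at 1.42 and 1.70 and LC at 0.824 and 0.948. Macrophages were at 0.299, 0.657, 0.262 and 0.266, and regulatory T cells at 0.220, 0.232, 0.147 and 0.251.

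Tumor and control skin were compared over the sum of all kept cells of each library, which answers how much collagen RNA the sorted fraction held and mixes cell numbers with levels. In such sums fewer cells of a type and less RNA per cell cannot be told apart. Of the 44 genes, 32 passed the filter on low counts and 9 were higher in tumors, with 9.99% of all tested genes higher, and 4 were lower, with 14.7% of all tested genes lower. The median log2 fold change was 1.02 over the 32 members and 0.06 over all tested genes. Col3a1 was at 0.0135 and 0.0370 in control skin and 0.232 and 1.57 in tumor, a rise of 4.97 ± 1.15 on the log2 scale (SE, n = 2 and 2, adjusted p = 0.0427). The tumors lay far apart from each other for this gene, and both lay above both controls.

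Of the type VI genes, Col6a1, Col6a2 and Col6a4 were higher too. Col6a1 was at 0.00221 and 0.00293 against 0.0502 and 0.337 (6.04 ± 1.16, adjusted p = 0.0295), and Col6a2 rose by 5.27 ± 1.08 (adjusted p = 0.0332). Col6a4 had no UMI in control skin and 55 and 74 in the tumors, at least 34.7-fold more against a floor of 3 counts over both controls (adjusted p = 0.0306). Col6a3 was at 0.000983 and 0.00542 against 0.0155 and 0.0756 and did not pass (adjusted p = 0.07998). Also higher were Col8a1 (5.45 ± 0.75, adjusted p = 0.0161), Col5a3 (4.57 ± 0.95, adjusted p = 0.0345), Col5a1 (4.07 ± 0.92, adjusted p = 0.0409), Col4a1 (3.98 ± 0.90, adjusted p = 0.0404) and Col18a1 (3.43 ± 0.82, adjusted p = 0.0458). Col4a2 and Col4a5 lay in the same direction, by 3.49 and 3.25, and missed the threshold at adjusted p = 0.0568 and 0.0718.

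Of the lower genes, Col27a1 was the main member of control DETC, and Col17a1 and Col4a6 were found in the keratin-bearing cells. Col27a1 was at 0.774 and 0.955 in control skin and at 0.0219 and 0.119 in tumor and fell by 3.81 ± 0.85 on the log2 scale (adjusted p = 0.0390). Over the same libraries DETC went from 635 and 841 cells to 14 and 27. Col17a1 changed by -3.99 ± 0.56 (adjusted p = 0.0168) and Col4a6 by -3.48 ± 0.55 (adjusted p = 0.0206), while the keratin-bearing cells went from 17 and 25 to 1 and 0. Col1a2 changed by -2.61 ± 0.53 (adjusted p = 0.0332), from 0.0285 and 0.0456 to 0.00447 and 0.00952. Its partner chain gene Col1a1 did not pass in either direction (0.27 ± 0.76, adjusted p = 0.814), with levels of 0.0209 and 0.0519 against 0.0222 and 0.0779. Col12a1 (-1.88 ± 0.87, adjusted p = 0.173) and Col16a1 (-0.61 ± 0.76, adjusted p = 0.586) did not pass.

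The sums were also taken without the collagen-positive cells, a choice made after seeing the data. Since those cells were chosen by their Col1a1, Col1a2 and Col3a1 UMIs, lower collagen sums follow from the choice, and the values are a description. Of 28 members then tested, 3 were higher in tumors (13.3% of all tested genes), Col6a1 by 3.07, Col8a1 by 2.84 and Col4a1 by 1.97 on the log2 scale. Col3a1, a gene of the gate, was at 1.81 ± 0.65. Lower were 6 members (17.3% of all tested genes): Col27a1 by -4.94, Col17a1 by -4.22, Col4a6 by -4.04, Col12a1 by -3.78, Col16a1 by -3.33 and Col1a2 by -2.81. Calls over all kept cells also depended on the libraries. Fewer members were called when 1 control library was left out, and more when 1 tumor library was left out. The same held for the number of all tested genes called. Such fits leave 1 sample in a group, so their counts are not given.

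**Figure D5:**
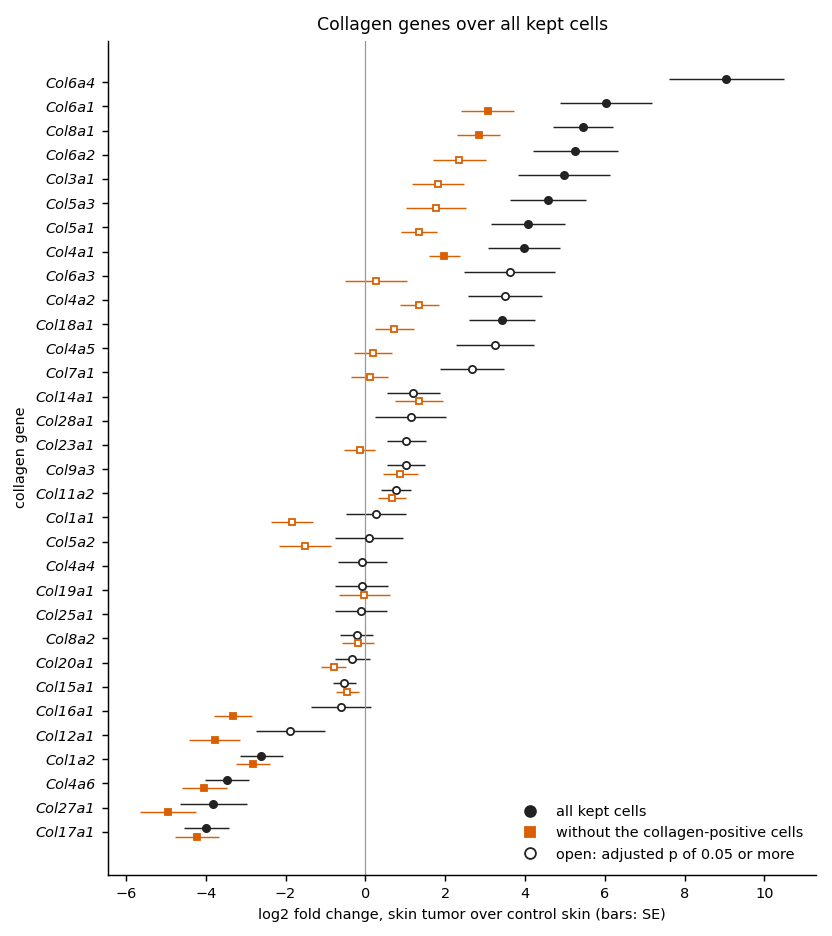
Log2 fold change of tumor over control skin with its SE for each tested collagen gene, over all kept cells (black circles) and without the collagen-positive cells (orange squares); open symbols have an adjusted p of 0.05 or more. Col6a1 lies at 6.04 in black and 3.07 in orange; the point of Col6a4, which had no UMI in control skin, is a fitted value whose size depends on the prior count.

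Within single immune types few members could be tested. In macrophages 10 passed the filter and 2 were lower in tumors, with 0.527% of all tested genes lower and no member higher. Col1a2 was at 0.0465 and 0.131 in control skin and 0.00638 and 0.00412 in tumor (-4.29 ± 0.64, adjusted p = 0.0400), and Col27a1 was at 0.0399 and 0.0468 against 0.00344 and 0.00275 (-3.95 ± 0.64, adjusted p = 0.0499). For both genes the groups did not overlap, but the genes were picked by this test, so the gap is no further support. Over all kept cells, which include the macrophages, Col27a1 and Col1a2 were lower in tumors as well. The part of free RNA in these macrophage calls was not tested. No member was called over all deposited cells or with a stricter gate, where 107 and 83 of all tested genes were called. Only 1 member was called without the library-size correction of edgeR (TMM factors), and 1 without cells of at least 5 fibrillar UMIs. Of all tested genes, 138 and 108 were called there, against 120 in the main fit. The calls also depended on which library was left out. Col1a1 was at 0.0133 and 0.165 against 0.00810 and 0.0137 and was not called (-3.40 ± 0.91, adjusted p = 0.162).

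In DETC 6 members passed the filter and 0 were called, as were 0 of all 11488 tested genes (0%) in edgeR's test. At an unadjusted p under 0.05 there were 1 member, Col16a1 (adjusted p = 0.370), and 1407 genes. DESeq2 called 0 members and 380 of the 11488 genes. Col16a1 had 77 and 138 UMIs in control DETC and 0 in those of the tumors. Col27a1 differed by -1.11 ± 1.07 (adjusted p = 0.693) and Col12a1 by 0.27 ± 0.70 (adjusted p = 0.901). The tumors disagreed, with skin tumor 1 below control skin and skin tumor 2 near or above it for both genes. Without skin tumor 2, Col27a1 was lower by 5.97 in a test that rests on 1 UMI in 14 tumor cells. The difference between the macrophage and DETC changes of Col27a1 was not called (1.86 ± 1.10, adjusted p = 0.704). In cDC1, cDC2, αβ T cells, regulatory T cells, NK cells, neutrophils and mast cells no member passed the filter, and LC, mature dendritic cells, dermal γδ T cells and ILC2 had fewer than 10 cells in at least 1 library.

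Other genes of the collagen pathway were taken from lists of synthesis and processing, cross-linking, degradation and uptake, receptors, and fibril partners, which were chosen with earlier results of these data known. In the tumor collagen-positive cells 20 of 22 tested synthesis genes were higher than in αβ T cells and none lower, where 24.6% of all tested genes were higher, with a median log2 difference of 4.01 against 0.00 over all tested genes. Serpinh1 was higher by 8.71 ± 0.44 and Pcolce, an enhancer of procollagen cleavage, by 8.55 ± 0.47, while the prolyl hydroxylase gene P4ha1 was higher by only 0.91 ± 0.24. All 8 tested fibril partners were higher, 4 of 6 genes of degradation and uptake, among them Mmp2 (6.75 ± 0.51) and Mmp14 (5.97 ± 0.38), and 2 of 3 cross-linking genes, Loxl1 and Loxl3. Of 9 receptors, Ddr1, Ddr2 and Itga10 were higher, and Lair1, an inhibitory collagen receptor of leukocytes, and Mrc1, the mannose receptor, were lower. The share of 24.6% over all tested genes holds for each of these lists. The cells were chosen by collagen UMIs, and genes near 0 in T cells could pass the filter only through them. These counts are therefore a description.

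Over all kept cells 9 of 24 synthesis genes were higher in tumors and 3 lower, against 9.99% and 14.7% of all tested genes. Serpinh1 rose by 5.01 ± 0.82 (adjusted p = 0.0216) and Pcolce by 6.31 ± 1.13 (adjusted p = 0.0256), and the lower genes were Colgalt2, Mia3 and P4ha2. Among 9 genes of degradation and uptake, Mmp13, Mmp14 and Mmp2 were higher, with Mmp14 up by 1.89 ± 0.17 (adjusted p = 0.00721). Ddr2 and Lair1 were higher among 9 receptors, Loxl3 among 3 cross-linking genes and Dpt among 9 fibril partners. Within macrophages the only called pathway gene was P3h2, a prolyl hydroxylase gene (-3.48 ± 0.38, adjusted p = 0.0209, 1 of 16 synthesis genes), and in DETC no pathway gene was called.

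The genes most like the summed collagen genes across classes were found by Pearson's correlation of log2 CPM over 49 class-by-library sums, among 8374 genes. They were Spats2 (r = 0.803), Samd4 (0.755), Fstl1 (0.745), Yap1 (0.742), Arhgap42 (0.742), Ghr (0.712), Dync1li2 (0.710), Lgr4 (0.700), Gpc6 (0.697) and Dlc1 (0.697). The sums share libraries, and the collagen sum is high both in the tumor collagen-positive cells and in control DETC, where different members lead. Fstl1, which is in the stromal list, was at 297 and 398 CPM in the tumor collagen-positive cells and at most 59.8 CPM in any other sum, whereas Yap1 was at 115 and 120 CPM there and reached 155 CPM elsewhere.

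Not described by level were 17 members, with 3 to 605 UMIs in all and a highest group mean of 0.0764 in the classes considered. Among them Col17a1, Col4a6 and Col6a5 were called in a comparison and are given above. The cartilage genes Col2a1 and Col9a2 had 4 UMIs each and Col10a1 had 22, and Col22a1 had the fewest, 3. At this depth no cell class could be assigned to them.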

How the data were processed

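The UMI counts were deposited by the authors as 1 unnormalized 10x matrix per sample (Cell Ranger 7.1.0 in the processing notes, 7.0.1 in the matrix header, mm10). Whether intronic reads were counted is not given in the sources used here. Cells with at least 100 genes, 1000 UMIs and a complexity of 0.8, and at most 15% mitochondrial UMIs, were kept. Immune types were gated on marker UMIs, with thresholds set after the numbers of cells were seen. No doublet caller was run, and cells in several gates were left out of the types. Counts were summed per class and library and tested with edgeR 4.0.16 in R 4.3.3 (quasi-likelihood test, Benjamini-Hochberg adjustment over all genes, threshold 0.05), using classes with at least 10 cells in each library used. DESeq2 1.42.0, another normalization, no filter, the replicate number as a block, stricter gates and leaving out each library were alternatives. Levels, shares and figures used Python 3.11.15, numpy 2.4.6, scipy 1.17.1, pandas 2.3.3 and matplotlib 3.10.9. Intervals (Clopper-Pearson, 95%) and the floor of 3 counts cover counting error only. Members and lists were chosen with earlier results of these data known. Genes were described when their group mean reached 0.1 UMIs per 10,000 in collagen-positive cells or in a type with at least 10 cells in every library, or when a comparison called them, together with the 10 genes most like them. The tests were checked on simulated data, where a simulated log2 change of 2 was recovered for 58.5% of changed genes over all kept cells, 69.5% in macrophages and 21.5% in DETC. Of the calls there, 7.14%, 4.14% and 10.4% were unchanged genes in the same order, and 10.7% in cDC2. In the 1 draw simulated per fit, the share was thus above the threshold of 0.05 in some fits. Its spread over repeated draws was not measured. Some alleles of the mouse model and 1 marker list are not reported here.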

Additional observations from a re-analysis of the deposited data

Results flagged for a closer look

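Cells that passed no gate are in no comparison of types, and they held Col3a1 above the control level. Its mean level over the 2 tumors was 0.205 UMIs per 10,000, from 0.141 and 0.270, against 0.0124 and 0.0245 in control skin. The cell with the most gave 23.5% of the tumor UMIs. The difference was not tested.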

How the results depend on the processing

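Depth and cell number limit these results: 2 libraries a group, few collagen-positive control cells, and few DETC in the tumors. The count of members called over all kept cells ran from 0 to 20 when 1 library was left out. In macrophages, where 2 members and 120 of all tested genes were called, the count of members was 1 without TMM factors, with 138 genes called. It was 0 over all deposited cells and 0 with a stricter gate, with 107 and 83 genes called. Without cells of 5 or more fibrillar UMIs it was 1, with 108 genes called. It ran from 0 to 2 in DETC, from 0 to 1 in αβ T cells and from 0 to 3 in NK cells. Without a filter on low counts the number of members called was 1 in cDC2 and 2 in αβ T cells. Of all genes, 1473 of 15835 were then called in cDC2 and 1931 of 18384 in αβ T cells. Members above αβ T cells numbered from 1 to 2 in macrophages, 0 in NK cells and from 0 to 1 in mast cells when 1 library was left out. Against all other gated immune cells they numbered 4 in macrophages and 1 each in regulatory T cells, ILC2 and neutrophils. There were 0 in mature dendritic cells with a stricter gate and 2 in dermal γδ T cells over all deposited cells. The shares of all tested genes in these fits against T cells or other immune cells are not given here. Their counts are a description. In cDC1 the mean collagen level was 0.114 in control skin and 0.193 in tumor, and the ratio of tumor to control was 2.44 per cell. In NK cells the means were 2.33 in control skin and 0.221 in tumor, so tumor was lower. That ratio turned to 1.17 with a stricter gate and 1.42 without cells of 5 or more fibrillar UMIs. In control skin 2, 1 NK cell held 124 of 128 collagen UMIs. The difference in the share of collagen-positive cells ran from 0.984 to 4.88 points when 1 library was left out. Col12a1 in DETC ran from -2.61 to 1.06 when 1 library was left out, with the change of sign without skin tumor 2. The causes were not tested.

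Deviations of same-numbered libraries from their group means had a correlation of r = -0.0139 over 8552 genes. This 1 value cannot show whether same-numbered samples were handled together. With the replicate number as a block, 14 of 32 members and 2580 of all 16543 tested genes were called over all kept cells. Col5a3 was not called with this block (4.19, adjusted p = 0.0518), and Col12a1 in DETC was at -0.16.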

Other observations

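Col23a1, a membrane collagen, had no UMI in the 11 and 20 cDC1 of control skin and 21 and 3 UMIs in those of the tumors, at 0.0969 and 0.0825 UMIs per 10,000. With so few control cells, a count of 0 allows a share of up to 27.3% and 15% of cells with a UMI. In cDC2 it had no UMI in control skin and 9 and 7 UMIs in the tumors. The gene did not pass the filter on low counts in either type. Without the filter, edgeR's test gave adjusted p = 0.288 in cDC1 and 0.0244 in cDC2, on fits that rest on 0 UMIs in control skin.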
